A study of Mus musculus with 36 samples.

Results

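The mitosis genes described here are 35 genes that a cell uses to enter and leave division, of 24411 genes listed for each RNA-seq library. They were chosen by name, as known mitotic cyclins, kinases, kinetochore and spindle genes, and not by a cut on their values, but with earlier results of these data known, so their counts beside the shares of all tested genes are descriptions. In dividing cells, cyclin B and Cdk1 start mitosis, Polo-like and Aurora kinases build the spindle, and the spindle checkpoint holds back the anaphase-promoting complex (APC/C) until every kinetochore is attached. The APC/C then destroys securin and cyclin B, and the central spindle and contractile ring split the cell. Most of these genes are transcribed mainly in late S, G2 and M phase, so in a culture their RNA is usually read as a measure of how many cells are dividing.

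The RNA came from cultured mesenchymal stem cells (MSCs) of 8-week-old C57BL6/J mice, with 3 libraries from femoral bone marrow (fBM-MSC), 2 from vertebral bone marrow (vBM-MSC), 3 from adipose tissue (A-MSC) and 3 from lung (P-MSC). Another vertebral library, replicate 3, was not analysed here. Marrow cells were freed by crushing the bone and lung and adipose cells by collagenase. All were grown on collagen I in MesenCult medium with MesenPure and a Rock inhibitor, for up to 3 passages, and the groups were not given different treatments in the methods or labels. The study states that 3 mice gave all 4 tissues, but not which libraries share a mouse, so the libraries were treated as independent and the p-values measure the spread between cultures. Chromatin accessibility was measured by ATAC-seq, with 1 peak list per tissue.

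The libraries held 19569650 to 40517739 expected counts, RSEM's estimates of the reads per gene. Levels are given as TPM, transcript abundances corrected for gene length and library size. The edgeR test used below also scales each library by a TMM factor (a correction for RNA composition). These factors were 0.913 to 0.947 in A-MSCs and 1.07 to 1.11 in P-MSCs. A higher factor lowers the scaled level, so P-MSCs stand further above A-MSCs by TPM than in edgeR. In fBM-MSCs, replicate 2 stood apart, with the highest TPM of that tissue for 29 of the 35 mitosis genes. MSC surface markers were present, since the summed TPM of Itgb1, Cd44, Ly6a and Vcam1 was 983 or more in every library. They were not alike between tissues, as Ly6a was at 42.3 to 46.5 TPM in P-MSCs, 114 to 145 in A-MSCs and 256 to 805 in marrow. Vcam1 went the other way, with 113 to 117 TPM in P-MSCs and at most 71.8 elsewhere. Ptprc, the pan-leukocyte marker, did not exceed 0.35 TPM. Cd34, a marker used to exclude MSCs, was at 10.2 to 79.2 TPM in fBM-MSCs and at most 7.46 TPM elsewhere. Pecam1, another such marker, was at 3.84 TPM in A-MSC replicate 1 and at most 0.34 TPM elsewhere. Of 12 macrophage markers, 7 stayed under 1 TPM in every library, Adgre1 among them with at most 0.34 TPM. Of the others, Lyz2 was at 22.2 to 36.35 TPM, Cd68 at 12.3 to 18.5 and Fcer1g at 4.70 to 19.8 in fBM-MSCs. Fcer1g was at 0 in every A-MSC and P-MSC library. Csf1r was highest in A-MSCs, at up to 6.56 TPM, and Cd14 in P-MSCs, at up to 5.60. The summed TPM of the list was 14.7 to 16.9 in P-MSCs, 19.1 to 27.7 in A-MSCs, 24.7 to 53.9 in vBM-MSCs and 45.2 to 71.9 in fBM-MSCs. The 7 mesothelial markers summed to 77.7 to 95.7 TPM in A-MSCs, 54.8 to 64.0 in P-MSCs and at most 12.3 in marrow. In P-MSCs nearly all of it was Krt19, at 51.7 to 59.8 TPM, while Wt1 and Lrrn4 were at 0 and Upk3b and Krt8 at no more than 0.24 TPM. The 6 endothelial markers summed to 51.7 TPM in A-MSC replicate 1, of which Emcn alone made 49.5 TPM, and to at most 8.10 TPM elsewhere. The 7 erythroid and 6 epithelial markers summed to at most 1.67 and 3.35 TPM, and 8 granulocyte and lymphocyte markers to at most 15.6 TPM. The part of these markers in the differences between tissues was not tested.

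As a sum, the mitosis genes rose from marrow to adipose tissue to lung. Their summed TPM was 328, 455 and 321 in the fBM-MSC libraries and 482 and 458 in the vBM-MSC libraries. It reached 1488, 1482 and 1457 TPM in the A-MSC libraries and 2810, 2658 and 2823 TPM in the P-MSC libraries. The 4 tissues did not overlap, and the P-MSC mean of 2764 ± 91.6 TPM (SD, n = 3) stood above 1476 ± 16.8 TPM in A-MSCs (n = 3), 470 ± 17.2 TPM in vBM-MSCs (n = 2) and 368 ± 75.7 TPM in fBM-MSCs (n = 3). Bub3 supplied a large share of the marrow sums, and without it the means were 240, 346, 1336 and 2597 TPM in fBM-, vBM-, A- and P-MSCs, and the marrow sites overlapped, with 327.91 TPM in fBM-MSC replicate 2 and 327.56 TPM in vBM-MSC replicate 2. In whole cultures, fewer dividing cells and less mitotic RNA per cell cannot be told apart.

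In TPM, each of the 35 genes was higher in every P-MSC library than in any other library, a pattern held by 20.1% of the 12509 genes tested. For 29 of the 35, every A-MSC library also lay between the P-MSC and the marrow libraries, against 5.61% of all tested genes. The other 6 were Cdc25b, Bub3, Incenp, Cenpe, Cenpf and Mki67, for which A-MSCs overlapped marrow. All 35 passed the filter of a CPM (read count scaled to library size) of 1 in at least 2 libraries, 31 of them in every library. The plot of TPM by library shows these steps gene by gene.

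**Figure D1:**
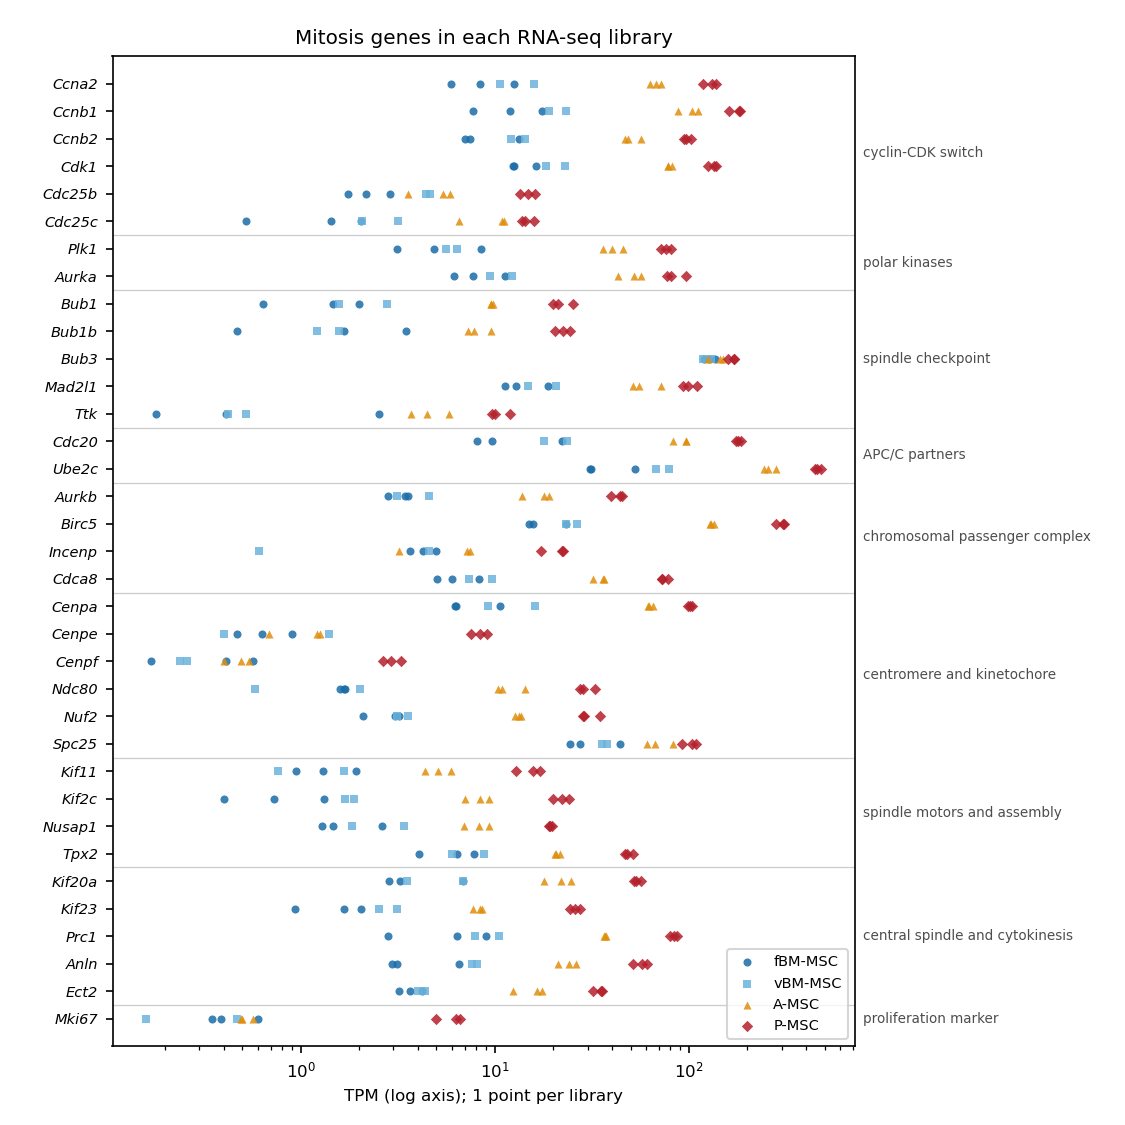
TPM of the 35 mitosis genes on a log axis, with 1 point per RNA-seq library and genes grouped by role. The red P-MSC diamonds lie to the right of every other library for all 35 genes, and the orange A-MSC triangles lie between them and the blue marrow points for 29, the exceptions being Cdc25b, Bub3, Incenp, Cenpe, Cenpf and Mki67.

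Among the 4 tissues, 34 of the 35 mitosis genes differed in edgeR's quasi-likelihood test at a Benjamini-Hochberg adjusted p under 0.05, where 60.6% of all tested genes did, and Bub3 was the exception at an adjusted p of 0.0573. Between P-MSCs and fBM-MSCs, 34 genes were higher in P-MSCs, against 23.0% of all tested genes, and the median log2 fold change of the 35 was 3.45, against -0.02 for all tested genes. All 35 were higher in P-MSCs than in vBM-MSCs, against 17.7% of all tested genes, with a median of 3.04. From fBM-MSCs to A-MSCs, 30 were higher in A-MSCs, against 20.3%, with a median of 2.47, and from vBM-MSCs to A-MSCs 29 were, against 12.4%, with a median of 2.10. From A-MSCs to P-MSCs the step was smaller, with a median of 0.98 and 27 genes higher in P-MSCs, against 14.9% of all tested genes. In these 5 comparisons every fold change of the 35 genes was above 0 in edgeR, DESeq2 and limma with all libraries in. Bub3 from A-MSCs to P-MSCs without A-MSC replicate 1 and Cenpe from vBM-MSCs to A-MSCs without vBM-MSC replicate 1 turned below 0, neither of them called. Some of these comparisons share libraries, so their counts are not independent of each other.

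The count from A-MSCs to P-MSCs was 17 without A-MSC replicate 2. Of these 27 calls, those of Bub1, Bub1b, Ccnb1, Incenp and Plk1 were lost without any 1 of the A-MSC or P-MSC libraries. Those of Ccna2, Ccnb2, Ube2c, Nusap1 and Prc1 were lost without some of these libraries, and the other 17 were kept in each of these fits. Aurka, Cdc20 and Mad2l1, which missed the threshold in this comparison, were called with DESeq2, with limma, with no filter on low counts and in a model of these tissues alone. Without fBM-MSC replicate 2, the counts higher than in fBM-MSCs were still 34 for P-MSCs and 30 for A-MSCs, and the medians were 3.68 and 2.85.

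**Figure D2:**
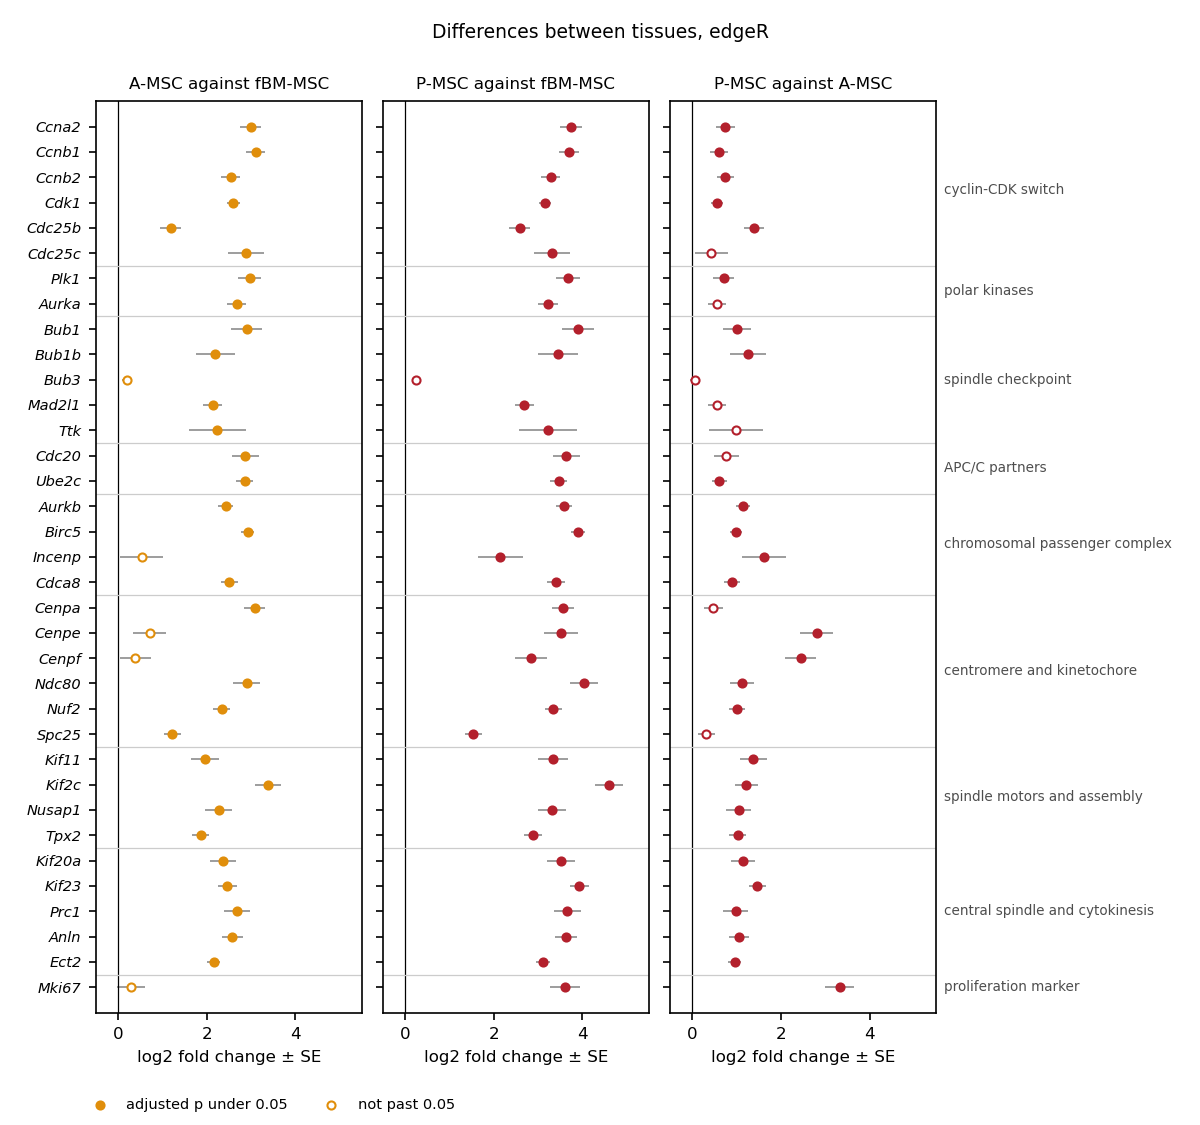
Log2 fold change with its standard error for each mitosis gene in edgeR, for A-MSCs against fBM-MSCs, P-MSCs against fBM-MSCs and P-MSCs against A-MSCs, with filled points where the adjusted p was under 0.05. In the first and second panels 30 and 34 genes are filled, while in the third 27 are filled and Mki67, Cenpe and Cenpf reach 2.44 to 3.33.

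Promoters are shown here for the genes of highest mean TPM in 5 of the 9 roles, to set the start regions of members side by side. Bub3 is among them and had the smallest difference of the 35 between P-MSCs and fBM-MSCs. Many late cell cycle genes are known to carry a cell cycle genes homology region (CHR), which recruits the DREAM and B-Myb-MuvB complexes, and CCAAT boxes bound by NF-Y. RefSeq promoters (GRCm38.p6, 250 bases before to 50 after the start) were matched for 29 of the 35 genes, all but Ccna2, Cdc25c, Aurkb, Incenp, Tpx2 and Kif20a. The 250 bases before the start are printed 5′ to 3′ on the strand of the gene. Capitals mark CCAAT, or ATTGG on the other strand, and TTCAAA, the CHR letters TTTGAA read from the other strand.
Ccnb1, chr13:100786487-100786736, minus strand: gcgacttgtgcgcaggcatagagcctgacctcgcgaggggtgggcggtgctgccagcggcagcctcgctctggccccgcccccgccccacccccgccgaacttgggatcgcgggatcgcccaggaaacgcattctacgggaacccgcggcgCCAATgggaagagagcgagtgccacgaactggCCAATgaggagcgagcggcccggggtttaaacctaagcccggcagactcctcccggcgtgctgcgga
Aurka, chr2:172370571-172370820, minus strand: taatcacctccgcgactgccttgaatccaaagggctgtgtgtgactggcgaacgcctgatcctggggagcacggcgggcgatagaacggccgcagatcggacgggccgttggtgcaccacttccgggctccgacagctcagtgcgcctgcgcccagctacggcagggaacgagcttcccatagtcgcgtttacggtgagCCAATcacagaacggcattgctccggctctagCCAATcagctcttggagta
Bub3, chr7:131560120-131560369, plus strand: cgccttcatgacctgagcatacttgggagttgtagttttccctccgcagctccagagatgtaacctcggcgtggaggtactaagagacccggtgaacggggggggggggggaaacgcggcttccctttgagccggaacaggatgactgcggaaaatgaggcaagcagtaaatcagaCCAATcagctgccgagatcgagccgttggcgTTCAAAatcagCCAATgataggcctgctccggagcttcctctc
Ube2c, chr2:164769679-164769928, plus strand: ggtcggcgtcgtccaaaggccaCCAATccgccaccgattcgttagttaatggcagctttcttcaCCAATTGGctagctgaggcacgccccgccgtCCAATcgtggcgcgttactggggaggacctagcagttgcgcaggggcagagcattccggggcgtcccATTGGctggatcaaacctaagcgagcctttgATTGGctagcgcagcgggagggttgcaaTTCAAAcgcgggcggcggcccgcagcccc
Birc5, chr11:117848987-117849236, plus strand: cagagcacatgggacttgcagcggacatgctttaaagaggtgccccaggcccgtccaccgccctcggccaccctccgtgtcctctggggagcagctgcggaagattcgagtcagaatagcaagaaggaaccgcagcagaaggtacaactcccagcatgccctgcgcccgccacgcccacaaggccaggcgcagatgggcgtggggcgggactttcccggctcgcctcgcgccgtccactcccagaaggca

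Positions count -1 as the last base before the start and 1 as the start itself, and give the leftmost letter of a match. In Ube2c a CHR lay at -29 behind 6 CCAAT boxes, of which those at -186 and -183 overlap. In Bub3 a CHR at -43 lay between CCAAT boxes at -74 and -32. In Aurka the CCAAT boxes at -51 and -19 were followed by a CHR at 33, past the start, and Ccnb1 held CCAAT boxes at -99 and -67 and no CHR. Birc5 held neither set of letters in its 300 bases.

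Over the 29 promoters, the CHR letters (TTTGAA or TTCGAA, either strand) occurred in 23 (79.3%), against 19.2% of 32851 RefSeq promoters of the same length. A CCAAT box on either strand occurred in 22 (75.9%), against 37.4% of all promoters, and 15 (51.7%) held at least 2, against 11.7%. Both kinds of letters were found in 20 (69.0%), against 7.52% of all promoters. The E2F letters TTCCCGCC, TTTCGCGC or TTTGGCGC were found in the Cdk1 promoter alone, or 3.45% against 2.96%. The median GC content was 59.0% for the members and 52.7% for all promoters. For Kif2c, the start in the promoter table lies inside the annotated gene, 3852 bases from its 5′ end. Mad2l1, Birc5, Nuf2 and Nusap1 held neither CHR nor CCAAT letters, and each of them was higher in P-MSCs than in both marrow tissues. These matches describe letters in a window and show no binding.

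**Figure D3:**
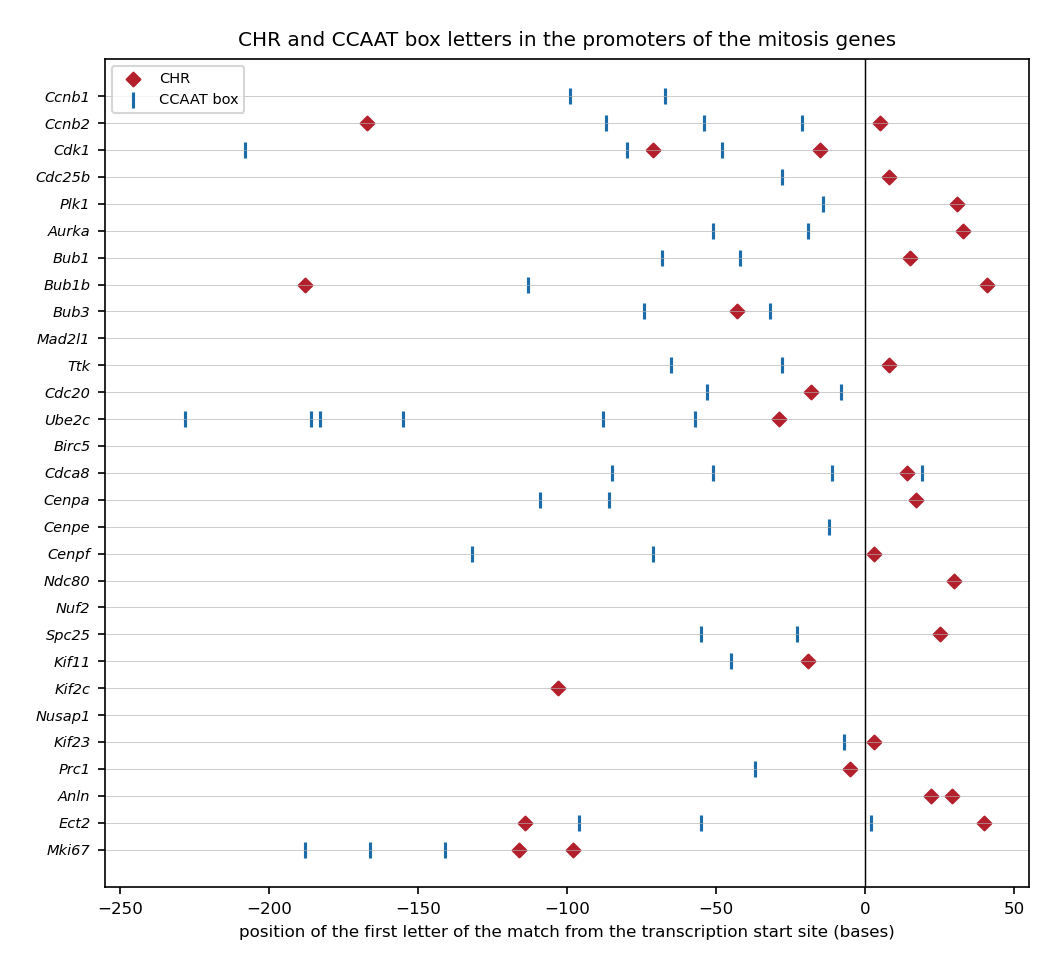
Position of CHR letters (red diamonds) and CCAAT boxes (blue bars) relative to the transcription start site, in bases, for the 29 mitosis genes with a RefSeq promoter. Of them 23 carry a CHR and 22 a CCAAT box, and Mad2l1, Birc5, Nuf2 and Nusap1 carry neither.

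The cyclin and Cdk1 genes form the switch into mitosis. Ccnb1 (cyclin B1, the partner of Cdk1) was at 7.68, 17.4 and 11.98 TPM in the fBM-MSC libraries and 19.1 and 23.3 TPM in the vBM-MSC libraries, and at 111, 104 and 87.9 TPM in A-MSCs and 180.35, 160.25 and 184 TPM in P-MSCs. The 4 tissues did not overlap, and its log2 fold change from fBM-MSCs was 3.10 ± 0.22 (edgeR adjusted p = 2.59e-06) in A-MSCs and 3.70 ± 0.22 (edgeR adjusted p = 5.34e-07) in P-MSCs. From A-MSCs to P-MSCs it was 0.60 ± 0.20 (edgeR adjusted p = 0.0409), a call that was lost when any 1 of the A-MSC or P-MSC libraries was left out. Ccna2 (cyclin A2) and Ccnb2 (cyclin B2) followed it, from means of 8.93 and 9.22 TPM in fBM-MSCs to 129 and 97.6 TPM in P-MSCs. Exons of Ccna2 overlap those of Exosc9 in the annotation, and the libraries do not keep strand, so reads of these genes cannot be fully told apart.

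Cdk1 (the mitotic kinase itself) was at 12.6, 16.3 and 12.4 TPM in the fBM-MSC libraries and 23.1 and 18.4 TPM in the vBM-MSC libraries, and at 81.7, 77.97 and 78.02 TPM in A-MSCs and 135, 125 and 138 TPM in P-MSCs. Its groups did not overlap, and it rose by 3.15 ± 0.14 on the log2 scale from fBM-MSCs to P-MSCs (edgeR adjusted p = 1.69e-07) and by 0.55 ± 0.13 from A-MSCs to P-MSCs (edgeR adjusted p = 0.00931). The phosphatases that activate Cdk1 were expressed at lower levels. Cdc25b was at 1.75, 2.17 and 2.88 TPM in the fBM-MSC libraries and 4.64 and 4.41 TPM in the vBM-MSC libraries, and at 5.40, 5.86 and 3.57 TPM in A-MSCs and 16.1, 14.8 and 13.5 TPM in P-MSCs. A-MSC replicate 3 lay below both vBM-MSC libraries, so the difference between A-MSCs and vBM-MSCs was 0.22 ± 0.25 (edgeR adjusted p = 0.574), while that between P-MSCs and A-MSCs was 1.40 ± 0.23 (edgeR adjusted p = 0.00114). For Cdc25c the mean was 9.50 ± 2.61 TPM in A-MSCs and 14.7 ± 1.09 TPM in P-MSCs (SD, n = 3 each), and the difference of 0.43 ± 0.37 did not pass the test (edgeR adjusted p = 0.404).

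The kinases of the spindle poles behaved alike in direction. Plk1 (Polo-like kinase, needed for mitotic entry and spindle formation) was at 3.14, 8.49 and 4.83 TPM in the fBM-MSC libraries and 5.59 and 6.36 TPM in the vBM-MSC libraries, and at 36.1, 40.1 and 45.8 TPM in A-MSCs and 81.03, 75.8 and 71.5 TPM in P-MSCs. No groups of Plk1 overlapped except both marrow sites, and it rose by 3.67 ± 0.27 on the log2 scale from fBM-MSCs to P-MSCs (edgeR adjusted p = 1.69e-06). Aurka (Aurora A, the centrosome kinase that Tpx2 activates) had means of 50.4 ± 6.99 TPM in A-MSCs and 84.8 ± 10.4 TPM in P-MSCs, a difference of 0.55 ± 0.21 that did not pass the test (edgeR adjusted p = 0.0629).

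In the spindle checkpoint, 4 of 5 genes rose from fBM-MSCs to P-MSCs, and the small difference of Bub3 did not pass the test. Bub3 (a checkpoint scaffold that also works in splicing) was at 137, 127 and 120.16 TPM in the fBM-MSC libraries and 118 and 130.07 TPM in the vBM-MSC libraries, and at 125, 145 and 150.11 TPM in A-MSCs and 169.94, 170.11 and 159 TPM in P-MSCs. It was the most abundant of the 35 in marrow, its P-MSC libraries were above all others in TPM, and A-MSCs overlapped marrow. From A-MSCs to P-MSCs its mean TPM rose 1.19-fold, but its log2 fold change was 0.05 ± 0.11 (edgeR adjusted p = 0.741). Its log2 fold change from fBM-MSCs to P-MSCs was 0.25 ± 0.11 (edgeR adjusted p = 0.0687), and only the difference from vBM-MSCs, 0.35 ± 0.12 (edgeR adjusted p = 0.0387), passed the test. That call was lost without fBM-MSC replicate 2, A-MSC replicate 2, or any 1 of the vBM-MSC or P-MSC libraries, and also with no filter on low counts or with the replicate number as a block. The difference from fBM-MSCs passed the test with limma on log2(TPM + 1) and log2(TPM + 0.1), without fBM-MSC replicate 1 and with length offsets in edgeR (0.43 ± 0.11, edgeR adjusted p = 0.00576), and that among the 4 tissues did so in these fits, with DESeq2 and without A-MSC replicate 1.

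Bub1 and Bub1b (checkpoint kinase and the BubR1 inhibitor of the APC/C) rose by 3.91 ± 0.36 and 3.45 ± 0.46 on the log2 scale from fBM-MSCs to P-MSCs (edgeR adjusted p = 7.88e-06 and 9.44e-05). Mad2l1 (Mad2, the Cdc20-binding inhibitor) was at 11.3, 18.9 and 12.9 TPM in the fBM-MSC libraries and 20.7 and 14.8 TPM in the vBM-MSC libraries, and at 71.8, 55.5 and 51.4 TPM in A-MSCs and 98.9, 93.1 and 110.00 TPM in P-MSCs. Its P-MSC values were above the A-MSC values, but the difference of 0.56 ± 0.20 did not pass the test (edgeR adjusted p = 0.0564). Ttk (the Mps1 kinase that starts the checkpoint) was the least precise, with 0.18, 2.54 and 0.41 TPM in the fBM-MSC libraries and 0.42 and 0.52 TPM in the vBM-MSC libraries, and 3.71, 5.80 and 4.46 TPM in A-MSCs and 10.03, 9.68 and 11.96 TPM in P-MSCs. Its lowest count in a library was 6, fBM-MSC replicate 2 lay far above the other marrow libraries, and the difference of P-MSCs from fBM-MSCs was 3.22 ± 0.66 (edgeR adjusted p = 0.002).

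Both partners of the APC/C were among the abundant members outside marrow. Cdc20 (the activator of the complex) was at 8.11, 22.3 and 9.68 TPM in the fBM-MSC libraries and 23.6 and 17.9 TPM in the vBM-MSC libraries, and at 97.00, 96.7 and 82.9 TPM in A-MSCs and 179, 184 and 175 TPM in P-MSCs. Ube2c (its ubiquitin-conjugating enzyme, UbcH10) was at 30.8, 52.9 and 31.4 TPM in the fBM-MSC libraries and 79.3 and 67.2 TPM in the vBM-MSC libraries, and at 245, 256 and 281 TPM in A-MSCs and 479.94, 447 and 456 TPM in P-MSCs. The P-MSC values of Ube2c were the highest of the 35 genes. Ube2c rose by 3.47 ± 0.19 on the log2 scale from fBM-MSCs to P-MSCs (edgeR adjusted p = 3.58e-07) and by 0.61 ± 0.18 from A-MSCs to P-MSCs (edgeR adjusted p = 0.0214), a call that was lost without A-MSC replicate 1 or 2 or P-MSC replicate 1 or 3. For Cdc20 the step from A-MSCs to P-MSCs was 0.77 ± 0.28 and did not pass the test (edgeR adjusted p = 0.0564), although no library overlapped. Exons of Cdc20 overlap Elovl1 in the annotation.

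The chromosomal passenger complex corrects faulty attachments at the centromere and later guides cytokinesis. Birc5 (survivin, its targeting subunit) was at 15.01, 23.3 and 15.7 TPM in the fBM-MSC libraries and 26.6 and 23.4 TPM in the vBM-MSC libraries, and at 130.19, 129 and 134 TPM in A-MSCs and 305, 281 and 309 TPM in P-MSCs. The groups did not overlap, and Birc5 rose by 2.92 ± 0.16 from fBM-MSCs to A-MSCs (edgeR adjusted p = 5.85e-07) and by 0.98 ± 0.14 from A-MSCs to P-MSCs on the log2 scale (edgeR adjusted p = 0.000594). Aurkb (Aurora B, its kinase) had means of 3.28 ± 0.398, 16.9 ± 2.69 and 42.9 ± 2.88 TPM in fBM-, A- and P-MSCs (SD, n = 3 each). Cdca8 (borealin) reached 74.4 ± 3.14 TPM in P-MSCs.

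Incenp (the scaffold that activates Aurora B) differed from its 3 partners. It was at 4.99, 3.67 and 4.25 TPM in the fBM-MSC libraries and 0.61 and 4.60 TPM in the vBM-MSC libraries, and at 7.48, 7.16 and 3.19 TPM in A-MSCs and 22.3, 17.4 and 22.4 TPM in P-MSCs. A-MSCs overlapped both marrow tissues, and the difference of A-MSCs from fBM-MSCs was 0.53 ± 0.49 (edgeR adjusted p = 0.421). From vBM-MSCs it was 1.34 ± 0.58 (edgeR adjusted p = 0.113), and it was called with DESeq2 and without vBM-MSC replicate 2. P-MSCs were above every other library, with a difference from A-MSCs of 1.61 ± 0.50 (edgeR adjusted p = 0.0287) that was lost when any 1 of the A-MSC or P-MSC libraries was left out.

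At the centromere and kinetochore, the plate that binds microtubules, the inner and outer parts were all higher in P-MSCs than in both marrow tissues. Cenpa (the histone variant that marks centromeres) was at 6.23, 10.6 and 6.27 TPM in the fBM-MSC libraries and 16.1 and 9.25 TPM in the vBM-MSC libraries, and at 61.6, 62.4 and 65.4 TPM in A-MSCs and 98.3, 101 and 103 TPM in P-MSCs. Its A-MSC and P-MSC values did not overlap, but that step of 0.47 ± 0.22 did not pass the test (edgeR adjusted p = 0.124). Ndc80 (the microtubule-binding arm of the kinetochore) was at 1.70, 1.68 and 1.60 TPM in the fBM-MSC libraries and 0.58 and 2.01 TPM in the vBM-MSC libraries, and at 10.3, 14.3 and 10.8 TPM in A-MSCs and 27.5, 28.4 and 32.6 TPM in P-MSCs. Its difference between P-MSCs and vBM-MSCs, 4.45 ± 0.39 (edgeR adjusted p = 8.8e-06), was the largest of the 35 in that comparison. Its partners Nuf2 and Spc25 were 3.34 ± 0.19 and 1.54 ± 0.20 higher in P-MSCs than in fBM-MSCs on the log2 scale (edgeR adjusted p = 3.72e-07 and 7.73e-05). Spc25 had the higher marrow level, with 27.5, 43.9 and 24.5 TPM in fBM-MSCs.

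Cenpe and Cenpf, the kinesin and the large coiled-coil protein of the outer kinetochore, passed the test against marrow in P-MSCs but not in A-MSCs, where the call changed with the setting. Cenpe was at 0.47, 0.90 and 0.63 TPM in the fBM-MSC libraries and 0.40 and 1.40 TPM in the vBM-MSC libraries, and at 1.25, 1.21 and 0.69 TPM in A-MSCs and 7.54, 8.40 and 9.08 TPM in P-MSCs. Cenpf was at 0.41, 0.57 and 0.17 TPM in the fBM-MSC libraries and 0.26 and 0.24 TPM in the vBM-MSC libraries, and at 0.40, 0.54 and 0.49 TPM in A-MSCs and 2.93, 2.66 and 3.30 TPM in P-MSCs. For each of these genes A-MSCs overlapped marrow and P-MSCs lay far above all other libraries. The log2 difference of P-MSCs from A-MSCs was 2.81 ± 0.37 (edgeR adjusted p = 0.000358) for Cenpe and 2.44 ± 0.35 (edgeR adjusted p = 0.000585) for Cenpf. From fBM-MSCs to A-MSCs it was 0.71 ± 0.37 (edgeR adjusted p = 0.144) for Cenpe and 0.39 ± 0.35 (edgeR adjusted p = 0.400) for Cenpf. Cenpe was called in A-MSCs against fBM-MSCs without either 1 of the vBM-MSC libraries and against vBM-MSCs without vBM-MSC replicate 2, and Cenpf against vBM-MSCs with DESeq2 and without fBM-MSC replicate 3.

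Mki67 (Ki-67, the surfactant of mitotic chromosomes and the common proliferation marker) also had its largest step from A-MSCs to P-MSCs. It was at 0.39, 0.35 and 0.60 TPM in the fBM-MSC libraries and 0.16 and 0.47 TPM in the vBM-MSC libraries, and at 0.49, 0.50 and 0.57 TPM in A-MSCs and 5.0, 6.64 and 6.30 TPM in P-MSCs. A-MSCs overlapped fBM-MSCs, with a log2 difference of 0.28 ± 0.32 (edgeR adjusted p = 0.509). They lay above both vBM-MSC libraries, with a difference of 0.86 ± 0.37 (edgeR adjusted p = 0.107) that was called without vBM-MSC replicate 2. P-MSCs were 3.33 ± 0.33 (edgeR adjusted p = 5.36e-05) above A-MSCs, the largest difference of the 35 in that comparison. Over the 11 libraries, Pearson's r of log2(TPM + 1) with the mean of the other 34 was 0.81 for Mki67, 0.78 for Incenp, 0.83 for Bub3, 0.84 for Cenpe and Cenpf, 0.89 for Cdc25b and from 0.96 for Cdc25c to 0.997 for Kif2c for the remaining members. The libraries share tissues, so these values mainly describe how far a gene followed the steps between tissues.

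Motors and assembly factors of the spindle were all higher in P-MSCs than in each other tissue. Kif2c (MCAK, which removes tubulin at kinetochores) was at 0.40, 1.32 and 0.73 TPM in the fBM-MSC libraries and 1.69 and 1.87 TPM in the vBM-MSC libraries, and at 8.37, 9.37 and 7.05 TPM in A-MSCs and 22.1, 19.9 and 24.03 TPM in P-MSCs. The 4 tissues did not overlap. Its 4.60 ± 0.31 (edgeR adjusted p = 1.05e-06) from fBM-MSCs to P-MSCs was the largest log2 difference of the 35 in that comparison, on a lowest count of 14 in a library. Kif11 (Eg5, which pushes the spindle poles apart) was at 1.30, 1.93 and 0.94 TPM in the fBM-MSC libraries and 1.67 and 0.76 TPM in the vBM-MSC libraries, and at 4.37, 5.07 and 5.94 TPM in A-MSCs and 12.9, 17.03 and 15.7 TPM in P-MSCs. Tpx2 (the activator of Aurora A) and Nusap1 (a microtubule bundler) rose by 1.02 ± 0.18 and 1.05 ± 0.28 on the log2 scale from A-MSCs to P-MSCs (edgeR adjusted p = 0.00195 and 0.0165), and the call of Nusap1 was lost without A-MSC replicate 2 or P-MSC replicate 3.

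The central spindle and cytokinesis genes were all called from A-MSCs to P-MSCs, Prc1 with a call that was lost without any 1 of these libraries but P-MSC replicate 2. Kif23 (the MKLP1 motor of centralspindlin) was at 0.93, 2.05 and 1.67 TPM in the fBM-MSC libraries and 2.52 and 3.14 TPM in the vBM-MSC libraries, and at 7.70, 8.37 and 8.57 TPM in A-MSCs and 25.9, 24.5 and 27.5 TPM in P-MSCs. Its groups did not overlap and its step from A-MSCs to P-MSCs was 1.47 ± 0.20 (edgeR adjusted p = 0.000385). Prc1 (the bundler of the central spindle) was at 2.80, 9.05 and 6.36 TPM in the fBM-MSC libraries and 10.5 and 7.92 TPM in the vBM-MSC libraries, and at 36.7, 37.5 and 36.5 TPM in A-MSCs and 83.7, 79.9 and 86.8 TPM in P-MSCs. Anln (anillin, the scaffold of the contractile ring) and Ect2 (the RhoA activator) rose by 3.64 ± 0.25 and 3.11 ± 0.16 on the log2 scale from fBM-MSCs to P-MSCs (edgeR adjusted p = 1.16e-06 and 1.94e-07). Kif20a (MKLP2, which carries the passenger complex to the midzone) had means of 4.33 ± 2.23, 21.5 ± 3.38 and 54.1 ± 2.27 TPM in fBM-, A- and P-MSCs. Exons of Kif20a overlap Brd8 and Cdc23, those of Nusap1 overlap Oip5 and those of Anln overlap 9530077C05Rik. In addition, 6 of the 35 genes (Ccna2, Cdc20, Ndc80, Kif2c, Nusap1, Kif20a) had counts that were not whole in at least 1 library, which shows reads that RSEM divided between genes.

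Few mitosis genes passed the test between the marrow sites. Between fBM-MSCs and vBM-MSCs, 5 of the 35 genes were lower in fBM-MSCs, against 7.56% of all tested genes, and 0 were higher, against 5.24%, also at an unadjusted p under 0.05 in edgeR, DESeq2 or limma. The median log2 fold change was -0.35. The genes were Ube2c (-0.91 ± 0.20, edgeR adjusted p = 0.0133), Cdc25b (-0.97 ± 0.25, 0.0297), Cdk1 (-0.57 ± 0.15, 0.0301), Kif23 (-0.81 ± 0.23, 0.0410) and Anln (-0.87 ± 0.25, 0.0459). Libraries of the marrow sites did not overlap for 9 of the 35, against 38.3% of all tested genes. With the replicate number as a block Anln, Cdc25b and Cdk1 lost their calls, and in a model of these tissues alone all 5 genes did. The count changed with every library left out: it was 0 in edgeR without vBM-MSC replicate 1, where 1 gene was higher and 7 were lower in fBM-MSCs at an unadjusted p under 0.05, and 9 without the other vertebral library, 3 higher and 6 lower. In each of these fits the lone vBM-MSC library was assumed to vary like the other groups. For the femoral libraries it was 2 and 10 without replicate 1 and 2, all lower, and 3 without replicate 3, of which 1 was higher, and it was 2 without P-MSC replicate 2 and 3 without any of the other 5.

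Spread within a tissue was widest in fBM-MSCs, where the median coefficient of variation of the 35 genes was 32.8%, against 18.3% for all tested genes. It was 18.3%, 12.1% and 7.44% in vBM-, A- and P-MSCs, against 18.5%, 14.7% and 10.6% for all tested genes. Of the 35 genes, 18 had at least 100 counts in every library, and the part of counting error in this spread was not tested.

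The step from A-MSCs to P-MSCs went with gene length. Mki67 (10075 bases), Cenpf (11122) and Cenpe (7813) are the longest members and had the largest differences, and over the 35 genes Pearson's r of the log2 fold change with log10 length was 0.78 (Spearman's rho 0.72). For A-MSCs against fBM-MSCs it was -0.52 (rho -0.45), and for P-MSCs against fBM-MSCs 0.07 (rho 0.01), while for P-MSCs against vBM-MSCs it was 0.31 (rho 0.32). Genes share libraries, so these are descriptions. Over all tested genes the median log2 fold change from A-MSCs to P-MSCs ran from -0.21 for genes of up to 1000 bases to 0.33 for those over 8000 bases, and from fBM-MSCs to A-MSCs from 0.14 to -0.30.

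With length offsets in edgeR, an alternative chosen after seeing the data, the P-MSC against A-MSC difference of Mki67 was 2.97 ± 0.28, that of Cenpe 2.55 ± 0.31 and that of Cenpf 2.05 ± 0.37. The adjusted p values were 4.3e-05, 0.000213 and 0.00205. In that comparison the offsets gave 30 calls, with Bub1 lost and Aurka, Cdc20, Cenpa and Mad2l1 gained. From fBM-MSCs to A-MSCs, Cenpe then passed the test with 1.01 ± 0.31 (edgeR adjusted p = 0.0237), while Mki67 stood at 0.62 ± 0.27 (0.0927) and Cenpf at 0.74 ± 0.37 (0.134). From vBM-MSCs to A-MSCs it was the other way round, as Mki67 and Cenpf passed the test with 1.22 ± 0.32 and 1.33 ± 0.44 (edgeR adjusted p = 0.0171 and 0.0437) and Cenpe, at 0.67 ± 0.35 (0.184), did not. Incenp (3217 bases), Cdc25b (3054) and Bub3 (2055), for which A-MSCs also overlapped marrow, are of middling length.

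**Figure D4:**
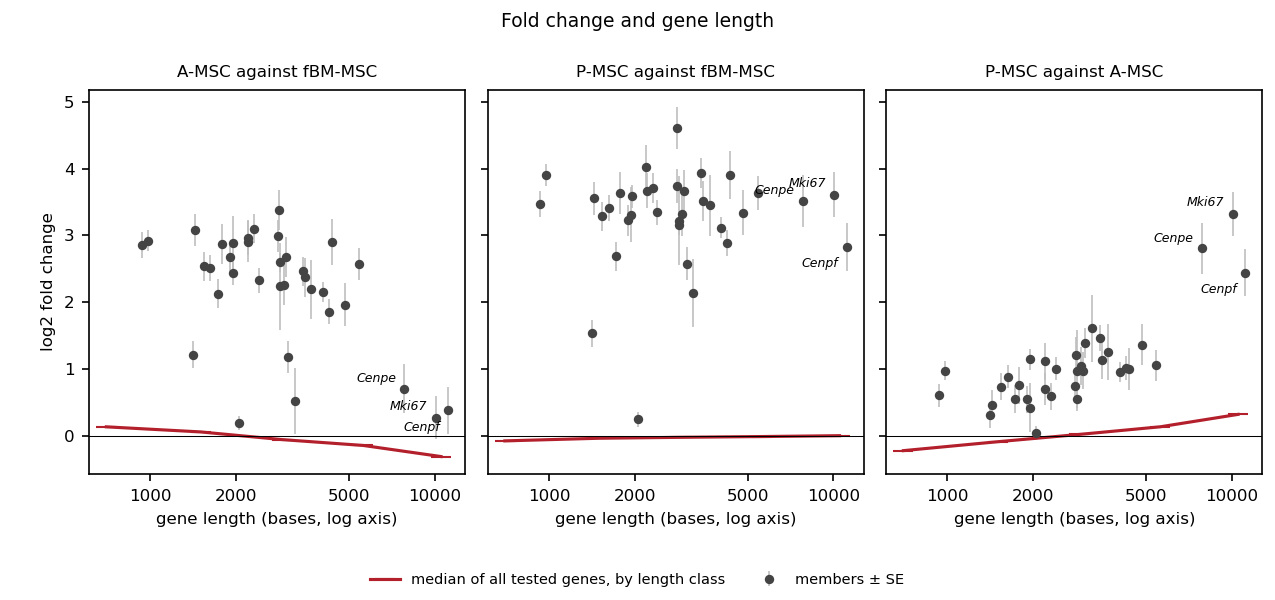
Log2 fold change with its standard error for each mitosis gene against gene length on a log axis, with the median of all tested genes in 5 length classes as a red line. Most members lie well above the line, Bub3 lies nearest to it, Mki67, Cenpe and Cenpf stand at 2.44 to 3.33 from A-MSCs to P-MSCs, and the red line slopes from -0.21 to 0.33 in that panel.

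Other genes of the same machinery, in lists set by name, mostly moved the same way between P-MSCs and fBM-MSCs. Of all tested genes, 23.0% were higher and 24.7% lower in P-MSCs than in fBM-MSCs, and 20.3% were higher and 20.6% lower in A-MSCs than in fBM-MSCs, while 14.9% were higher in P-MSCs than in A-MSCs. Of 31 other kinetochore and centromere genes, 29 were higher in P-MSCs than in fBM-MSCs, 24 in A-MSCs than in fBM-MSCs and 11 in P-MSCs than in A-MSCs, with 0 called lower in edgeR in both comparisons with fBM-MSCs. The lowest p over the 4 tissues belonged to Cenph, Pmf1 and Ska3 (kinetochore subunits), with 3.29 ± 0.26, 2.50 ± 0.19 and 2.71 ± 0.18 in P-MSCs against fBM-MSCs on the log2 scale (edgeR adjusted p = 2.29e-06, 1.96e-06 and 8.21e-07). Of 28 spindle and motor genes, 25 were higher in P-MSCs than in fBM-MSCs, 19 in P-MSCs than in A-MSCs and 19 in A-MSCs than in fBM-MSCs. The genes lower in A-MSCs than in fBM-MSCs were Gtse1 and Numa1 (a spindle pole protein), named after their values were seen, with -0.97 ± 0.19 and -1.25 ± 0.42 (edgeR adjusted p = 0.00182 and 0.0322). Hmmr (a microtubule-binding spindle protein) went from a mean of 2.10 TPM in fBM-MSCs to 7.73 and 29.2 TPM in A- and P-MSCs, and Kif22 (a chromosome arm motor) from 4.64 to 15.8 and 42.4, with Ckap2 at 6.88, 21.5 and 52.1. Of 17 mitotic kinases and regulators, 14 were higher in A-MSCs than in fBM-MSCs, 5 in P-MSCs than in A-MSCs and 15 in P-MSCs than in fBM-MSCs, Melk, Ccnf and Cdca5 (sororin) among them at 3.47 ± 0.29, 3.14 ± 0.18 and 2.64 ± 0.28.

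The condensin genes, which compact chromosomes, were higher in P-MSCs than in A-MSCs for 8 of 8, and higher in A-MSCs than in fBM-MSCs for 6. Smc4 (a core subunit) had means of 5.20, 9.79 and 44.3 TPM in fBM-, A- and P-MSCs, and was 1.99 ± 0.22 higher in P-MSCs than in A-MSCs on the log2 scale (edgeR adjusted p = 0.000122). Ncapg and Ncapg2 were 3.20 ± 0.18 and 3.31 ± 0.19 higher in P-MSCs than in fBM-MSCs (edgeR adjusted p = 3.42e-07 and 3.72e-07). Of 13 cohesin and separase genes, 5 were higher in A-MSCs than in fBM-MSCs, 5 in P-MSCs than in A-MSCs and 11 in P-MSCs than in fBM-MSCs, Smc3 (a ring subunit), Rad21 (the cleaved subunit) and Sgol2a (the shugoshin that protects it) among them with 0.90 ± 0.16, 1.20 ± 0.17 and 2.96 ± 0.36. Pttg1 (securin, the inhibitor of separase) was lower, with means of 60.5 TPM in P-MSCs and 86.97 in fBM-MSCs (-0.64 ± 0.12, edgeR adjusted p = 0.00125).

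The lists with jobs outside mitosis were mixed, and their counts stand against 23.0% of all tested genes higher and 24.7% lower. Of 17 genes for the core and inhibitors of the APC/C, 8 were higher and 2 lower in P-MSCs than in fBM-MSCs. Fbxo5 (Emi1, its interphase inhibitor) and Ube2s (its chain-extending enzyme) were 3.91 ± 0.24 and 1.63 ± 0.13 higher, while the core subunit Anapc1 was 0.91 ± 0.13 higher and Anapc2 and Anapc13 were at -0.23 ± 0.09 and -0.53 ± 0.18 (edgeR adjusted p = 0.0490 and 0.0315). Of 11 cytokinesis partners, 5 were higher in P-MSCs than in fBM-MSCs, Racgap1 (the partner of Kif23), Cep55 (an abscission scaffold) and Stmn1 (stathmin) among them with 3.48 ± 0.26, 3.61 ± 0.21 and 3.08 ± 0.24, and Sept9 (a septin) was lower with -1.54 ± 0.14 (edgeR adjusted p = 6.36e-06).

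Of 16 regulators of G2/M transcription, 11 were higher and 3 lower in P-MSCs than in fBM-MSCs. Foxm1 and Mybl2, the activators that bind with MuvB at CHR promoters, had means of 14.1 and 12.6 TPM in P-MSCs, 5.44 and 4.27 in A-MSCs and 0.88 and 0.56 in fBM-MSCs. Their log2 fold changes from fBM-MSCs to P-MSCs were 3.87 ± 0.31 and 4.31 ± 0.53 (edgeR adjusted p = 2.94e-06 and 5.72e-05), and Tfdp1 (the E2F partner) went from a mean of 41.6 to 102 TPM (edgeR adjusted p = 2.16e-06). Rbl2 (p130, the pocket protein of the repressive DREAM complex), its MuvB subunit Lin52 and Tfdp2 were lower, with -1.28 ± 0.32, -0.94 ± 0.20 and -0.55 ± 0.20 (edgeR adjusted p = 0.00609, 0.00267 and 0.0433).

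Upstream, 8 of 13 tested genes of G1 and S phase, a list of cyclins, their kinases, E2F factors and Rb1, were higher in P-MSCs than in fBM-MSCs and 2 were lower. Ccne2 (cyclin E2) and Cdk2 (its kinase) were 3.16 ± 0.14 and 1.75 ± 0.13 higher on the log2 scale (edgeR adjusted p = 1.69e-07 and 2.2e-06). Ccnd1 (cyclin D1, the growth factor sensor of G1) was lower in P-MSCs than in both marrow tissues but higher than in A-MSCs, with a mean of 606, 264, 35.4 and 129 TPM in fBM-, vBM-, A- and P-MSCs (-2.36 ± 0.11 from fBM-MSCs to P-MSCs and 1.67 ± 0.11 from A-MSCs to P-MSCs, edgeR adjusted p = 1.69e-07 and 4.15e-06). Ccnd2 was also lower in P-MSCs, with -1.11 ± 0.10 (edgeR adjusted p = 8.4e-06).

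The promoters of the mitosis genes were accessible in all 4 tissues. ATAC-seq reads mark DNA that a transposase could enter, and each peak summit has a fold enrichment over the genome background. A summit at a -log10 q of at least 7 lay within 1000 bases of a start site for 35 of the 35 genes in each tissue, against 86.4%, 88.2%, 89.0% and 88.1% of tested genes in fBM-, vBM-, A- and P-MSCs. The median fold enrichment of the 35 was 17.7, 18.03, 21.7 and 22.4 in fBM-, vBM-, A- and P-MSCs, against 14.3, 15.8, 16.2 and 16.9 for all tested genes with a summit. With 1 pooled list per tissue there is no replicate and no test.

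The fold enrichments of the 35 promoters and of all tested genes were compared between tissues by their log2 ratio. The median log2 ratio of P-MSCs over fBM-MSCs was 0.29 for the 35 promoters and 0.25 for all tested genes, and that of P-MSCs over A-MSCs was 0.14 against 0.08. The ratios over vBM-MSCs were further from those of all tested genes, with medians of 0.28 against 0.12 for P-MSCs and 0.14 against 0.05 for A-MSCs, while A-MSCs over fBM-MSCs gave 0.16 against 0.18. Cenpf had fold enrichments of 34.2, 39.4, 44.5 and 66.6 in fBM-, vBM-, A- and P-MSCs. Ccnb2 had 8.83, 8.83, 19.1 and 24.3, and its log2 ratio of P-MSCs over fBM-MSCs, 1.46, was the highest of the 35. Cdc20 had 23.5, 37.9, 39.00 and 48.2, the order of its RNA. Cdc25b went from 6.62 in fBM-MSCs to 15.4 in P-MSCs, and Mki67 from 15.1 to 23.9. Aurkb went the other way, with 11.8 in fBM-MSCs and 8.83 in P-MSCs, a log2 ratio of -0.42, and Birc5 stayed between 13.6 and 17.7. In all, 29 of the 35 ratios of P-MSCs over fBM-MSCs (82.9%) were above 0, against 74.3% of all tested genes, with the middle of the distribution over all tested genes (between percentiles 5 and 95) running from -0.37 to 0.89.

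**Figure D5:**
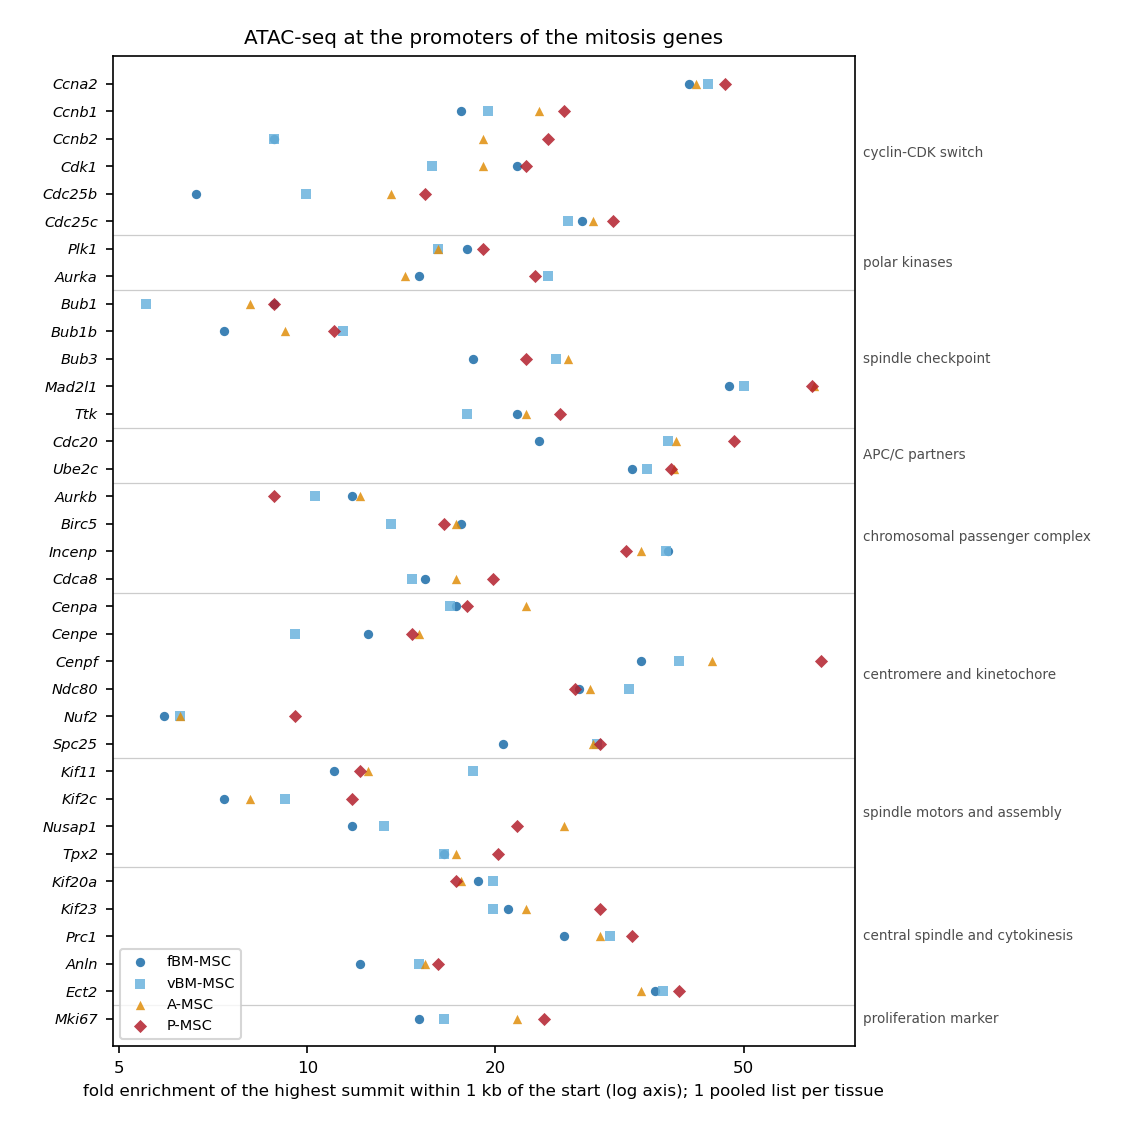
Fold enrichment of the highest ATAC-seq summit within 1000 bases of a start site, on a log axis, for each mitosis gene and tissue, with 1 pooled list per tissue. All 35 genes have a summit in all 4 tissues, and the median is 17.7 in fBM-MSCs and 22.4 in P-MSCs.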

How the data were processed

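The authors prepared Smart-seq2 libraries, which do not keep strand, and quantified paired reads with RSEM and STAR on the mm10 genome. The expected count deposited for a gene is an RSEM estimate without normalization. The TPM deposited beside it corrects for effective length and library size, and gene lengths came from the same deposited tables. For ATAC-seq, the authors trimmed reads, kept unique Bowtie alignments, took out duplicates, corrected for the Tn5 cut and called peaks with MACS2. The deposited peak lists give each summit a fold enrichment (a ratio over background) and a −log10 q. Versions are not given in the sources used here.

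Expected counts were rounded and tested in R 4.3.3 with edgeR 4.0.16 (two-sided quasi-likelihood F test, TMM, 1 model of 4 tissues over 11 libraries, at least 2 libraries at a CPM of 1 or more, Benjamini-Hochberg adjustment over 12509 genes, threshold 0.05). Alternatives used DESeq2 1.42.0, limma 3.58.1 on log2(TPM + 1) or log2(TPM + 0.1), other filters and fewer libraries. The tests were run on simulated data first. All replicate pairs differed by more than counting error. Peak summits were joined to the curated RefSeq starts of GRCm38.p6 for 12021 tested genes on chromosomes 1 to 19. Counts are given after rounding, and a count within 0.005 of an integer was taken as whole. All 35 members are named; for each other list the text names the 3 genes with the lowest p over the 4 tissues and genes called against the majority of a mitotic list. Members and lists were chosen with earlier results of these data known.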

Additional observations from a re-analysis of the deposited data

How the results depend on the processing

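The direction of the summed levels and of the median fold changes held in every alternative run. With limma on log2(TPM + 1), which pulls in the changes of low genes, the median log2 fold change of the 35 genes was 3.22 for P-MSCs against fBM-MSCs, 2.14 for A-MSCs against fBM-MSCs and 1.77 for A-MSCs against vBM-MSCs. TMM-scaled CPM in place of TPM changes the scaling of the libraries and also weights long genes more. With it, the summed level of P-MSCs over A-MSCs was 1.73-fold and that of A-MSCs over vBM-MSCs 3.33-fold. In TPM these ratios were 1.85 to 1.91 and 3.06 to 3.22 with single libraries left out. The parts of scaling and length weighting were not tested apart.

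Leaving out 1 library at a time gave 34 to 35 genes called among the 4 tissues, 34 to 35 for P-MSCs against fBM-MSCs, 34 to 35 against vBM-MSCs, 17 to 31 against A-MSCs, 30 to 31 for A-MSCs against fBM-MSCs, 28 to 30 against vBM-MSCs and 0 to 10 between the marrow sites. The medians ran from 3.34 to 3.68, 2.84 to 3.24, 0.94 to 1.04, 2.36 to 2.85, 1.85 to 2.31 and -0.61 to -0.14 in the same order of comparisons. The count for P-MSCs against A-MSCs was 17 without A-MSC replicate 2, 33 in a model of these tissues alone and 30 with DESeq2. Bub3 changed sign between P-MSCs and A-MSCs without A-MSC replicate 1 (-0.030, not called, within a range of -0.030 to 0.12 over single libraries left out). Cenpe did so between A-MSCs and vBM-MSCs without vBM-MSC replicate 1 (-0.22, not called, within a range of -0.22 to 1.41).

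No pairing by replicate number was detected. Deviations from the tissue means correlated at -0.03 to 0.12 over the 15 pairs of the same number and at -0.12 to 0.11 over the others. Deviations within a tissue sum to 0, and those of the 2 vBM-MSC libraries mirror each other. These values therefore cannot show whether libraries of the same number share a mouse. With the replicate number as a block, 2 genes were called between the marrow sites, and 0 by edgeR in a model of these tissues alone, where 5 had an unadjusted p under 0.05. The block gave 34 genes among the 4 tissues, 34 for P-MSCs against fBM-MSCs and 34 against vBM-MSCs, 27 against A-MSCs, 30 for A-MSCs against fBM-MSCs and 29 against vBM-MSCs. For P-MSCs against A-MSCs it lost the call of Ccnb1 and gained that of Aurka.

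An ATAC-seq summit at a -log10 q of at least 20 was found for 29, 29, 31 and 32 of the 35 promoters in fBM-, vBM-, A- and P-MSCs, against 63.0%, 68.6%, 69.9% and 71.0% of tested genes, and for 34 in each tissue within 500 bases, against 84.4% to 87.2%. Low marrow counts, down to 6 for Ttk, and 2 vBM-MSC libraries limit the comparison of the marrow sites.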
